A study of Mus musculus with 208 samples.

Results

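The genes described here are the potassium channel genes of mouse brain neurons, which encode the pore-forming and auxiliary subunits of potassium channels. A gene was taken as a member when its symbol began with Kcn, when it was not an antisense or overlapping-transcript symbol, and when its mean level reached 1 CPM (counts scaled to the total of each library) in at least 1 of 4 brain regions. Of 99 such symbols, 5 were antisense or overlapping transcripts and 17 stayed under 1 CPM, which left 77 members of 46403 genes. The members nearest above the minimum were Kcnmb1, with a highest regional mean of 1.04 CPM, and Kcnmb3, with 1.25 CPM. The genes nearest below it were Kcnv2 with 0.94 CPM and Kcnk7 with 0.88 CPM. In total, 70 members reached 1 CPM in all 4 regions.

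RNA was measured in nuclei that carried NeuN, a neuronal nuclear protein, sorted from tissue punches of the striatum, prefrontal cortex (PFC), hippocampus and hypothalamus of adult wild type C57BL/6NTac mice of both sexes. The 208 libraries carried 71 different replicate labels, each a first number and an individual number, which were read as animals, and 69 of these gave libraries of several regions. The first number took 18 values and is called the litter here. The labels do not name it so, and the study's methods count litters differently, so that whether it marks a litter is not settled. In the morphine groups the dams carried osmotic minipumps that delivered 10 mg/kg of morphine a day, the pups were moved to drug-naive surrogate mothers at birth, and the pups themselves were injected with 10 mg/kg of morphine from postnatal day 1 to 14. The saline groups went through the same steps, surrogate rearing included, with saline. As adults, all animals received an injection of lipopolysaccharide (LPS), a bacterial cell wall component that sets off an acute immune response, or of saline, and tissue was taken 2 h later. The 4 conditions are named by perinatal and then adult treatment, as SAL-SAL (saline at both stages), MOR-SAL, SAL-LPS and MOR-LPS. In that order they held 11, 14, 12 and 14 hypothalamic libraries, 13, 12, 14 and 16 hippocampal libraries, 10, 12, 10 and 16 PFC libraries, and 13, 8, 15 and 18 striatal libraries. Every first number had a single perinatal treatment, so that litter and exposure cannot be told apart within a comparison of exposures, and animals that share the number were counted as separate replicates, so that p-values measure the spread between animals, any siblings included.

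Potassium channels let potassium ions leave the cell and thereby set the resting potential, end the action potential and limit repetitive firing. Voltage-gated channels of the Kv families open on depolarization, inward rectifiers hold the membrane near rest, tandem-pore leak channels carry the background current, and calcium- or sodium-activated channels open after firing. Inward rectifiers of the GIRK group, which include the products of Kcnj3, Kcnj6 and Kcnj9, are opened by G proteins downstream of opioid receptors, which is a textbook path by which morphine quiets neurons. Auxiliary subunits such as the KChIP proteins (Kcnip genes), the Kv beta subunits (Kcnab genes) and the BK beta subunits (Kcnmb genes) bind the pore-forming subunits and change their gating or traffic.

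By family, the 77 members held 6 genes of the Kv1 family, 2 of Kv2, 4 of Kv3, 3 of Kv4, 5 of Kv7, 8 of the EAG, ERG and ELK group, 9 electrically silent modifiers, 12 inward rectifiers, 10 tandem-pore leak channels, 7 calcium- or sodium-activated channels and 11 auxiliary subunits. What the 66 pore-forming members share is the selectivity filter, the stretch of the pore loop where potassium ions shed their water. Each of the 66 carried at least 1 run of 5 codons for threonine or serine, any amino acid, glycine, an aromatic residue or leucine, and glycine in its longest coding sequence, and none of the 11 auxiliary members did. Across 21549 genes with a coding sequence, 5.42% held such a run. All 10 tandem-pore members held 2 of them, as each of their subunits contributes a pair of pore loops. Kcna6 and Kcnh2 also held 2, the extra run of each pairing serine with leucine outside the filter. The stretches below are from the members whose levels are described most closely. They are read 5′ to 3′ on the coding strand of the mm10 genome, with the 15 bases of the 5 codons in capitals and 6 bases on either side, and the positions given are those of the capitals.
Kcnd2 (Kv4, plus strand, joined from 2 exons, chr6:21217406-21714141): atgacaACACTGGGGTATGGCgacatg
Kcnq3 (Kv7, minus strand, chr15:66023731-66023745): ctggccACCATTGGTTATGGAgacaag
Kcna1 (Kv1, minus strand, chr6:126642228-126642242): atgaccACTGTGGGATACGGTgacatg
Kcnc2 (Kv3, plus strand, chr10:112456229-112456243): atgactACCTTAGGTTACGGGgatatg
Kcns1 (silent, minus strand, chr2:164164854-164164868): atgaccACAGTGGGCTATGGGgatgtg
Kcnh3 (ELK, plus strand, chr15:99232929-99232943): ctcaccAGTGTGGGCTTCGGCaacgtg
Kcnh8 (ELK, plus strand, chr17:52877991-52878005): ctcacaAGCGTTGGGTTTGGGaatgtg
Kcnj3 (inward rectifier, plus strand, chr2:55437627-55437641): gaggccACCATCGGCTATGGCtaccgc
Kcnj6 (inward rectifier, minus strand, chr16:94832777-94832791): gaaaccACCATCGGTTATGGCtaccgg
Kcnj10 (inward rectifier, plus strand, chr1:172369302-172369316): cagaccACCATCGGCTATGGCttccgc
Kcnk2, first (tandem-pore, minus strand, joined from 2 exons, chr1:189258891-189295600): atcacaACCATAGGATTTGGAaacatc
Kcnk2, second (chr1:189256581-189256595): ctgacgACCATTGGATTTGGAgactac
Kcnk10, first (tandem-pore, minus strand, joined from 2 exons, chr12:98490058-98496199): atcacaACCATAGGGTATGGGaatatt
Kcnk10, second (chr12:98440605-98440619): ctgaccACAGTAGGCTTTGGTgatttt

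Over the 66 pore-forming members there were 78 such runs, the extra runs of Kcna6 and Kcnh2 included. The combination of a threonine codon first and a tyrosine codon in the fourth place was the most frequent, in 47 runs, and is the one shown for Kcna1, Kcnc2, Kcnd2, Kcnq3, Kcns1 and the inward rectifiers. A serine codon first with a phenylalanine codon in the fourth place, as in Kcnh3 and Kcnh8, occurred in 7 runs, all of them in the EAG, ERG and ELK group. Both runs of Kcnk2 pair threonine with phenylalanine, as did 16 runs in all. The coding exons shown lie in loci of unequal length. Kcna1 spans 5.99 kb (chr6:126640397-126646384), Kcnc2 spans 195.9 kb (chr10:112271121-112467024), Kcnj6 spans 249.1 kb (chr16:94748636-94997701), Kcnq3 spans 300.3 kb (chr15:65986387-66286642) and Kcnd2 spans 514.3 kb (chr6:21215503-21729805).

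Depth and the labels were checked before levels were compared. Total counts per library ranged from 7673 to 35077048 in the hypothalamus, 227025 to 24071488 in the hippocampus, 3056648 to 21988203 in the PFC and 5954700 to 92945090 in the striatum, and 3, 2, 3 and 0 libraries lay under 0.5 of their region's median. All 7 neuronal markers were detected in every region, and the summed level of the list was lower in the hypothalamus, where condition medians lay between 1635 and 2220 CPM, than in the other regions, where the lowest library had 2907 CPM. To compare the regional lists, each marker's log2(CPM + 1) was centred and scaled over all 208 libraries and averaged over the list, since the lists differ in summed CPM. On this relative scale the region's own list was the highest of the 4 in 40 of 51 hypothalamic, 43 of 55 hippocampal, 44 of 54 striatal but only 14 of 48 PFC libraries. The other 34 PFC libraries had the striatal list highest on the same scale. In summed CPM the hypothalamic list was the lowest of the 4 in the hypothalamus, with condition medians between 37.5 and 90.1 CPM. Comparisons of regions and of conditions were therefore also fitted without the 67 libraries that stood against their region's markers, which left 6 PFC libraries in MOR-LPS, 3 in MOR-SAL, 3 in SAL-SAL and 2 in SAL-LPS. The PFC levels below include the 34 libraries, and without them the mean of 20 of 74 members moved by over 1.5 times. Levels of Y-linked genes went against the labelled sex in 3 hypothalamic, 4 hippocampal and 2 PFC libraries and in 0 striatal libraries. In bulk nuclei, fewer nuclei of a type and less RNA per nucleus cannot be told apart.

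Potassium channel genes took a smaller share of the counts in the hypothalamus than elsewhere. Members summed to 0.428% of counts there, against 1.70% for the hippocampus, 1.47% for the PFC and 1.77% for the striatum. Summed mean CPM of the Kv4 family was 157 in the hypothalamus and 1979, 1640 and 2600 in the hippocampus, PFC and striatum. The auxiliary subunits summed to 368 CPM in the hypothalamus and to 5578, 3958 and 5667 CPM in the other regions. The Kv1 family, whose channels sit on axons and hold down their excitability, ran the other way, with 417 CPM in the hypothalamus and 159, 179 and 232 CPM elsewhere. The Kv3 family, which repolarizes fast-firing neurons, was of the same order in every region, at 598, 700, 445 and 798 CPM. Inward rectifiers were highest in the hippocampus, at 1139 CPM, against 278 CPM in the hypothalamus, 658 CPM in the PFC and 463 CPM in the striatum. The PFC sum of the inward rectifiers was 1008 CPM without the libraries against their region's markers, where the hippocampal sum was 1198 CPM.

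**Figure D1:**
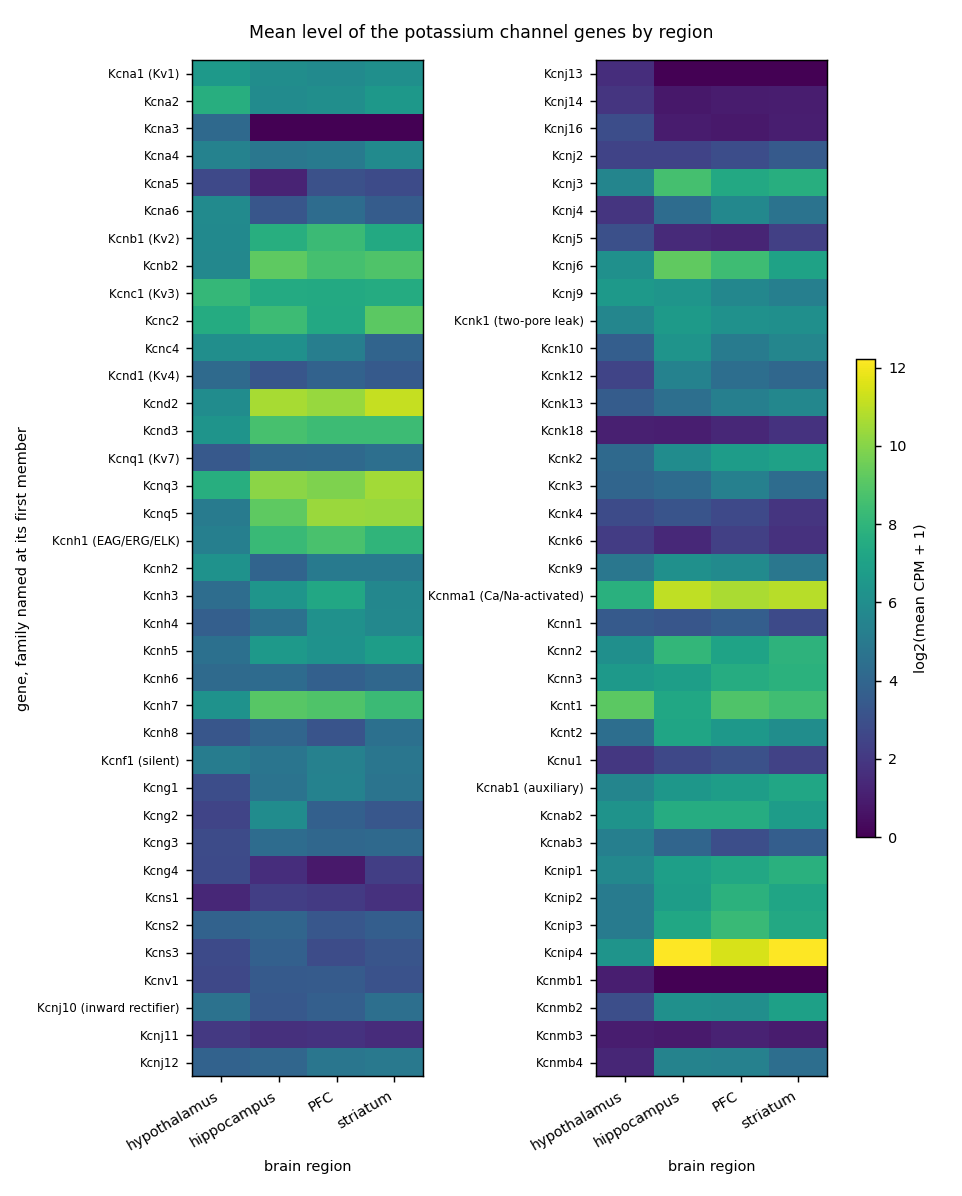
Mean level of potassium channel genes by region, for 74 of the 77 members, as log2(mean CPM + 1) on a colour scale, with genes in rows grouped by family and the 4 regions in columns. The hypothalamic column is darker for most members, Kcnd2 among them (61.1 CPM against 1297 to 2256 CPM), and brighter for Kcnt1 and Kcna2.

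Kcnd2 encodes the Kv4.2 subunit of the A-type current that delays firing and damps signals in dendrites. Its level was 61.1 ± 50.9 CPM in the hypothalamus (SD, n = 51), 1563 ± 457 CPM in the hippocampus (n = 55), 1297 ± 498 CPM in the PFC (n = 48) and 2256 ± 855 CPM in the striatum (n = 54). Intervals of the mean ± SD overlapped among the last 3 regions and not with the hypothalamus. Kcnip4, which encodes a KChIP partner of Kv4 channels, was likewise lowest in the hypothalamus, with 79.95 CPM, and had 2841 CPM in the PFC, 4730 CPM in the striatum and 4787 CPM in the hippocampus. Of the exon bases of Kcnip4, 56.9% also lie in other genes, and its counts are uncertain to that extent.

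Kcnq3 encodes a Kv7 subunit of the M-current, the slow current that G protein-coupled receptors switch off to raise excitability. It stood at 200.5 ± 115 CPM in the hypothalamus, 929.5 ± 307 CPM in the PFC, 1115 ± 300 CPM in the hippocampus and 1481 ± 494 CPM in the striatum. Kcnq5, another Kv7 gene, ran from 33.1 ± 16.4 CPM in the hypothalamus to 583 ± 340 CPM in the hippocampus and 1343 ± 547 CPM in the PFC.

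Kcnj6, which encodes the GIRK2 subunit, was highest in the hippocampus, at 605.5 ± 232 CPM, followed by the PFC at 341.7 ± 232 CPM, the striatum at 130.7 ± 104 CPM and the hypothalamus at 69.9 ± 31.3 CPM. With libraries against their region's markers left out, Kcnj6 had 591 CPM in the PFC (n = 14) and 656 CPM in the hippocampus (n = 43). Intervals of the mean ± SD overlapped between all neighbours in this order. Kcnj3, which encodes GIRK1, likewise had 397 CPM in the hippocampus and 46.5 CPM in the hypothalamus, whereas Kcnj9, which encodes GIRK3, had 96.6 CPM in the hypothalamus and 82.1, 48.9 and 38.2 CPM in the hippocampus, PFC and striatum.

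Several other genes that led their subfamilies were also lowest in the hypothalamus. Kcnma1, the gene of the large-conductance calcium-activated BK channel, had 212.6 ± 96.1 CPM in the hypothalamus and 2122 ± 681, 1610 ± 566 and 1900 ± 750 CPM in the hippocampus, PFC and striatum. Kcnb2, of the Kv2 delayed rectifiers, had 51.0 CPM in the hypothalamus and 586, 386 and 461 CPM in the others, and Kcnh7, of the ERG channels, had 75.2 CPM against 535, 463 and 326 CPM. The leak channel gene Kcnk2 had 16.9 CPM against 60.8, 106 and 125 CPM. Kcnn2, which encodes a small-conductance calcium-activated channel, had 66.8 CPM against 271, 137 and 236 CPM. Leaders that were not lowest there were Kcnt1, Kcnf1, Kcns2 and, with all libraries, Kcnc2. Kcnt1 had 563 ± 129 CPM in the hypothalamus, 156 ± 76.5 CPM in the hippocampus, 470 ± 158 CPM in the PFC and 353.5 ± 96.5 CPM in the striatum. Kcnc2 had 185 CPM in the hypothalamus against 335, 166 and 566 CPM in the hippocampus, PFC and striatum, and the silent modifiers Kcnf1 and Kcns2 were lowest in the hippocampus (25.7 CPM) and the PFC (8.86 CPM). The PFC had the highest mean levels of Kcnip3 (309.5 CPM against 156 in the hippocampus, 166 in the striatum and 32.8 in the hypothalamus), Kcnh3 (158 CPM against 82.2, 50.4 and 19.6) and Kcnj4 (50.5 CPM against 19.2, 24.6 and 2.65). The PFC also led for these 3 genes without the libraries against their region's markers, at 301 CPM for Kcnip3, 161 CPM for Kcnh3 and 53.1 CPM for Kcnj4. Of the genes above, Kcnc2, Kcnh7, Kcnj3 and Kcnk2 also moved by over 1.5 times in the PFC, to 265, 771, 261 and 70.3 CPM, and Kcnh3 in the hypothalamus, to 8.93 CPM. For Kcnc2 the order then turned, with the hypothalamus lowest at 182 CPM.

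Levels of different genes were compared per kilobase of exon. On that scale the hypothalamus was led by Kcnt1, a sodium-activated channel gene, with 59.3 CPM per kb, and Kcnc1 of the Kv3 family with 29.7, Kcnc2 with 25.98 and Kcnj9 with 22.5 CPM per kb were also among its 5 highest members. The other 3 regions were led by Kcnip4, with 1320 (hippocampus), 783 (PFC) and 1304 (striatum) CPM per kb, and then by Kcnd2, with 303, 252 and 438 CPM per kb. Kcnma1 came next in the hippocampus, with 125.0 CPM per kb, and Kcnq5 in the PFC and striatum, with 174.7 and 165.8 CPM per kb. The loci of Kcnip4, Kcnd2, Kcnma1 and Kcnq5 span 1135, 514, 725 and 564 kb, and that of Kcnt1 spans 54.5 kb. The part of locus length in these levels was not tested.

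The joint edgeR quasi-likelihood fit of all regions put these differences against the spread between libraries, with a member called when its adjusted p was under 0.05 and its log2 fold change (log2FC) at least 1 in size. Against the mean of the other 3 regions, 39 of 77 members were lower in the hypothalamus, where the share called lower among all genes was 12.3%, and 11 were higher, where that share was 32.3%. The median log2FC was −1.02 over the members and 0.49 over all genes tested. The 11 include 3 members without counts in the other tables, which passed the minimum through the hypothalamus alone, so that their call was fixed by the choice of members. Over the genes with counts in all 4 tables, 37 of 74 members were lower and 8 higher, against 16.5% and 19.9% of genes, with medians of −1.02 over the members and 0.18 over the genes. The 8 still include Kcnj14, which had counts in every table but reached a mean of 1 CPM in the hypothalamus alone. Without the libraries against their region's markers 55 members were called, and all 50 of the first fit were among them. With the animal as a replicate block 48 of the 50 were called, with Kcnc2 and Kcnk9 lost. The lowest were Kcnip4 (log2FC −5.91, SE 0.18), Kcnd2 (−5.24, SE 0.14), Kcnq5 (−5.20), Kcnmb4 (−4.73) and Kcnj4 (−3.999), the last an inward rectifier of the strongly rectifying Kir2 group. Kcnma1 (−3.38), Kcnq3 (−2.79) and Kcnj6 (−2.42) were also lower.

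By family, lower calls took in both Kv2 genes, 2 of 3 Kv4 genes, 3 of 5 Kv7 genes, 5 of 8 EAG, ERG and ELK genes, 5 of 9 silent modifiers, 5 of 10 tandem-pore genes, 4 of 7 calcium- or sodium-activated channel genes, 1 of 4 Kv3 genes and 8 of 11 auxiliary genes. None of the 6 Kv1 genes was called lower and 3 were called higher, 2 of them Kcna6 (log2FC 1.98) and Kcna2 (1.32). Of the exon bases of Kcna6, 93.6% also lie in another gene. The inward rectifiers were split, with 4 of 12 higher, Kcnj16 (2.14), Kcnj5 (1.59) and Kcnj14 (1.41) among them, and 4 lower. Kcnj14 passed the minimum of 1 CPM through the hypothalamus alone, so that its higher call is not independent of the choice of members. The other higher members included Kcng4 (1.69), a silent modifier, Kcnab3 (1.69), a Kv beta subunit, and Kcnh2 (1.31), which encodes the ERG1 channel. Of the exon bases of Kcnab3, 30.1% also lie in another gene. The counts of Kcna6 and Kcnab3 are uncertain to that extent.

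The third Kv1 gene, Kcna3, was 1 of 3 members called higher in the hypothalamus for which no fold is given. Kcna3 (16.9 CPM in the hypothalamus), Kcnj13 (2.01 CPM) and Kcnmb1 (1.04 CPM) had no counts in any hippocampal, PFC or striatal library. All of their exon bases lie inside another annotated gene. The same was true of all 8 Kcn symbols that were at 0 in those 3 tables, and of 2 of the other 91, and whether overlapping genes were counted alike in all tables is not given in the sources used here. The third Kv1 call and the fourth higher inward rectifier in the tallies above are Kcna3 and Kcnj13. Restricted to genes with counts in all 4 tables, 45 of 47 calls remained, and within SAL-SAL libraries alone 45 of 50 did, with Kcng4 and Kcnj14 among those lost.

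The members lower in the hypothalamus tended to be long genes. Over the 74 members with counts in all tables, the log2 ratio of the mean level in the other 3 regions to that in the hypothalamus correlated with the length of the locus at r = 0.65 (Spearman 0.65), and with exon length at 0.11 (Spearman 0.094). These are correlations across genes that share the same libraries, and genes are not independent replicates. Over all 15052 genes the correlation with locus length was 0.45 (Spearman 0.49). The 18 members of 200 kb or longer had a median log2 ratio of 2.36, the 35 members between 20 and 200 kb had 0.77, and the 21 shorter members had −0.25. The part of locus length in the regional difference was not tested.

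**Figure D2:**
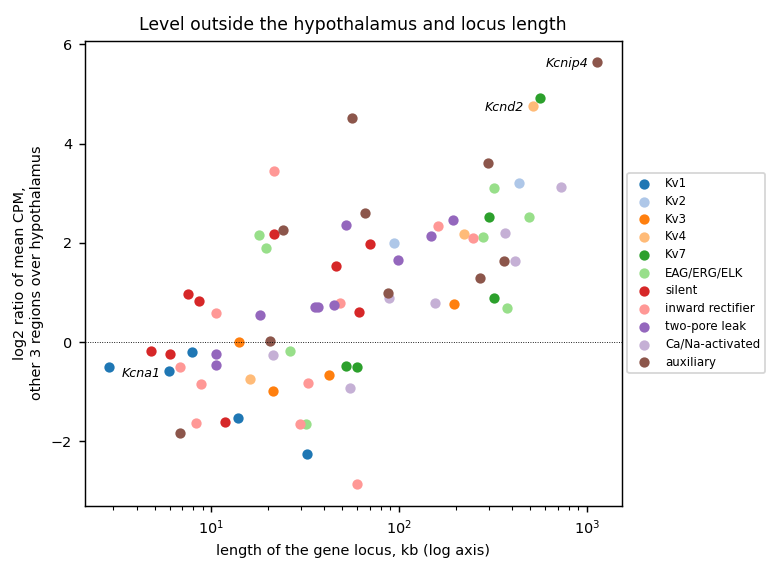
Length of the gene locus in kb on a log axis against the log2 ratio of mean CPM, other 3 regions over hypothalamus, for the 74 members with counts in all 4 tables, coloured by family. Points rise to the right, from short genes such as Kcna1 below 0 to Kcnd2 and Kcnip4 at the top (r = 0.65).

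Among the other 3 regions, fewer members differed. In striatum vs PFC, 4 of 74 members were higher and 8 lower, against 11.8% and 6.82% of all genes. The striatum was higher in Kcng4 (log2FC 2.59), Kcnj5 (1.81), Kcnc2 (1.75, SE 0.20) and Kcnh8 (1.37), and its lower members included Kcnh3 (−1.64, SE 0.14), Kcnj6 (−1.51, SE 0.22), Kcnc4 (−1.44), the leak channel genes Kcnk3, Kcnk4 and Kcnk9 (−1.11, −1.08 and −1.08) and Kcnj4 (−1.02). Kcnd2 and Kcnq3 were also higher in the striatum but under the fold limit, with log2FC of 0.84 and 0.70. Without the 67 libraries that stood against their region's markers, 24 members were called, 8 higher and 16 lower, against 10.7% and 5.64% of all genes, and 10 of these 12 were among them, with Kcnc2 and Kcnj4 lost. With the animal as a replicate block 10 of the 12 were called, with Kcnk4 (−0.86) and Kcnk9 (−0.98) under the fold limit. In SAL-SAL libraries alone 9 of the 12 were called, and Kcnk4 (−0.71) and Kcnj5 were among those lost. Summed thalamic markers had condition medians of 2984 to 4786 CPM in the striatum, 1891 to 2260 CPM in the PFC and 1153 to 1682 CPM in the hippocampus, and their part in the regional differences was not tested.

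In hippocampus vs PFC, 5 members were higher and 12 lower, against 7.16% and 8.77% of all genes. The hippocampus was higher in Kcng2 (2.20, SE 0.24), Kcng4 (1.68), Kcnk10 (1.15), Kcnj3 (1.14) and Kcnab3 (1.05). Its lower members were led by Kcna5 (−2.69), Kcnh4 (−1.80), Kcnt1 (−1.76, SE 0.12) and Kcnj4 (−1.61). Of these 17 calls, 11 remained without the libraries that stood against their markers, where 2 members were higher and 18 lower, against 6.02% and 5.78% of all genes. Of the 5 higher members only Kcng2 was still called there, and Kcng4, Kcnk10, Kcnj3 and Kcnab3 were lost. In SAL-SAL libraries alone 15 calls remained, with Kcng4 and Kcnab3 lost, and 16 remained with the animal as a replicate block, with Kcnh3 lost. Kcnd2 and Kcnq3, both with a log2FC of 0.14 (adjusted p = 0.443 and 0.41, edgeR), were not called.

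In hippocampus vs striatum, 8 members were higher and 13 lower, against 5.73% and 12.8% of all genes. Kcng2 (2.91, SE 0.25), a silent modifier, Kcnc4 (2.27, SE 0.19), a Kv3 gene, and Kcnj6 (2.16, SE 0.22) led the higher side, and the leak channel genes Kcnk4, Kcnk12 and Kcnk9 (1.57, 1.22 and 1.17) were also higher. Kcna5 (−2.42), Kcnj5 (−1.44), Kcnk18 (−1.41), Kcnh4 (−1.39) and Kcnt1 (−1.34) led the lower side. All 21 calls remained without the libraries against their markers, 19 with the animal as a block, and 10 in SAL-SAL libraries alone. Kcng2 had 60.9 ± 26.6 CPM in the hippocampus and 4.78, 12.5 and 8.82 CPM in the hypothalamus, PFC and striatum.

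The first condition comparison asks what perinatal morphine left behind in adults that had no immune challenge (MOR-SAL vs SAL-SAL). In the hypothalamus 2 of 77 members were called, both lower after morphine, where 1.44% of all genes were called. They were Kcnq3 and Kcnc2, and 16 members (20.8%) reached an unadjusted p under 0.05, as did 17.3% of all genes. Over the 20 condition comparisons that share of all genes lay between 10.1% and 20.5%, against which the counts at an unadjusted p given below are to be read. Over the members the median log2FC was −0.08, and over all genes it was 0.07.

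Kcnq3 lay between 115 and 190 normalised CPM in MOR-SAL libraries, with a median of 163, and between 131 and 895 in SAL-SAL libraries, with a median of 209. Each of the 14 MOR-SAL libraries lay under the median of SAL-SAL, though the ranges overlapped. The log2FC was −0.93 (SE 0.22, adjusted p = 0.018, edgeR). Kcnc2, which encodes the Kv3.2 subunit of fast-spiking neurons, had 92.6 to 311 with a median of 142 in MOR-SAL and 94.6 to 1050 with a median of 282 in SAL-SAL, a log2FC of −0.98 (SE 0.25, adjusted p = 0.031, edgeR), with 13 of 14 MOR-SAL values under the median of SAL-SAL.

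A pair of SAL-SAL libraries of litter 10 were the highest on both genes, at 895 and 562 for Kcnq3 and at 1050 and 604 for Kcnc2. The same libraries ranked first and second on the list of 8 thalamic markers, with summed levels of 3017 and 2201 CPM. That list ranged from 104 to 3017 CPM in SAL-SAL (median 672) and from 107 to 1060 CPM in MOR-SAL (median 221), with all 8 markers detected. Other lists differed too. The choroid plexus list had a median of 39.8 CPM in SAL-SAL (highest 320) and 9.85 CPM in MOR-SAL (highest 19.8). The astrocyte list had a median of 197 CPM in SAL-SAL (highest 851) and 124 CPM in MOR-SAL (highest 219). Medians were lower in SAL-SAL than in MOR-SAL for the hypothalamic list (44.1 against 90.1 CPM), the hippocampal list (258 against 416 CPM) and the striatal list (102 against 194 CPM), and the oligodendrocyte list reached 6827 CPM in SAL-SAL and 594 CPM in MOR-SAL. Without litter 10 neither gene was called, with log2FC of −0.38 for Kcnq3 (adjusted p = 0.356, edgeR) and −0.34 for Kcnc2 (adjusted p = 0.548). Kcnq3 was also lost without litter 15 (−0.91), and Kcnc2 without litter 3, 7, 12, 15 or 18 (−0.95 to −0.87). The part of these lists in the difference was not tested. Both genes were called without the libraries against their region's markers, where 0.912% of all genes were, with log2FC of −0.83 for Kcnq3 (adjusted p = 0.035, edgeR) and −1.01 for Kcnc2 (adjusted p = 0.046). In limma-voom with litters correlated, log2FC was −0.65 for Kcnq3 (adjusted p = 0.177) and −0.67 for Kcnc2 (adjusted p = 0.283), and 0 members were called.

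**Figure D3:**
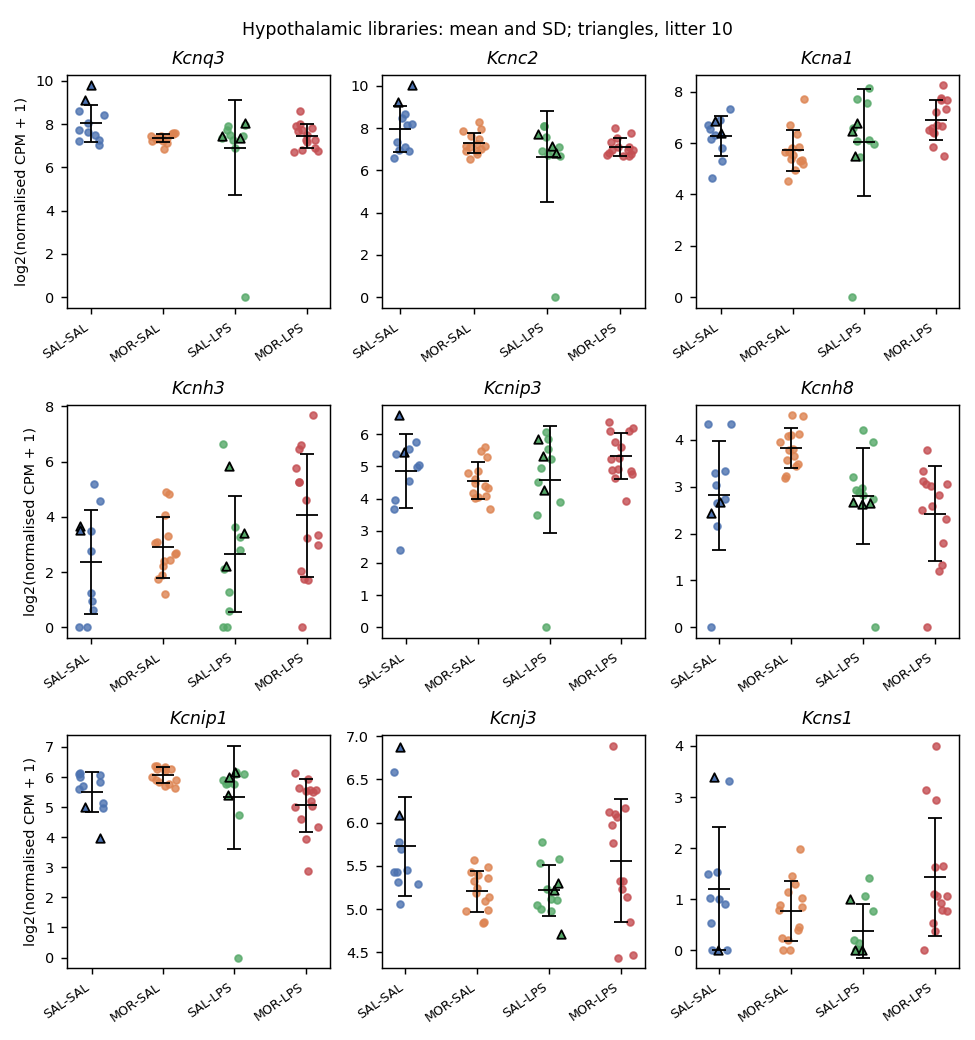
Level of the 9 members called in a hypothalamic condition comparison, as log2(normalised CPM + 1) for each library in the 4 conditions, with the mean and SD in black and triangles for litter 10. For Kcnq3 and Kcnc2 the 2 highest SAL-SAL points are triangles, and for Kcnh8 and Kcnip1 the MOR-LPS points lie mostly below the MOR-SAL points.

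No member was called for MOR-SAL vs SAL-SAL in the other regions, where 0% of all genes were called for the hippocampus, 0% for the PFC and 0% for the striatum. At an unadjusted p under 0.05 there were 3, 2 and 4 of 74 members, and DESeq2 and limma-voom called 0 in each region. None was called in these regions without the libraries against their region's markers. The members with the smallest p were Kcnk12 (log2FC 0.46) and Kcnc2 (−0.55) in the hippocampus, Kcnt1 (0.39) and Kcnv1 (−1.54) in the PFC, and Kcnk6 (0.98) and Kcnk4 (−0.90) in the striatum.

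The second comparison sets perinatal morphine against saline in LPS-challenged adults (MOR-LPS vs SAL-LPS). In the hippocampus 2 of 74 members were called, where 2.73% of all genes were, and both are inward rectifiers. Kcnj10 encodes Kir4.1, the channel by which astrocytes clear potassium, and was higher in MOR-LPS. Kcnj4 encodes Kir2.3, found at neuronal synapses, and was lower.

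Kcnj10 ran from 0.895 to 72.1 normalised CPM in MOR-LPS (median 6.54) and from 0 to 10.6 in SAL-LPS (median 5.03). Only 11 of 16 MOR-LPS libraries were above the SAL-LPS median, and the highest values came from a few libraries. The log2FC was 1.64 (SE 0.47, adjusted p = 0.043, edgeR). The 3 highest libraries, at 72.1, 64.8 and 29.6, were also the 3 highest on the list of 6 astrocyte markers, which summed to 268 to 1626 CPM in MOR-LPS (median 480) and to 244 to 563 CPM in SAL-LPS (median 369), with Gfap at 0 in every library of the region. The next libraries on Kcnj10, at 16.4 and 11.7, also lay above the highest SAL-LPS value, and they ranked 15 and 16 of 16 on the astrocyte list. The oligodendrocyte list had medians of 381 CPM in MOR-LPS and 293 CPM in SAL-LPS (highest 3766 and 495), and the microglial list 13.8 and 9.12 CPM (highest 195 and 17.2), with P2ry12 at 0. The part of glial nuclei in the difference was not tested. The call was lost without litter 2, 3, 4, 5, 7, 9, 10, 11, 13, 15 or 16, and the log2FC lay between 1.36 and 1.93 over all 18 litter omissions.

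Kcnj4 ran from 1.82 to 23.3 normalised CPM in MOR-LPS (median 14.9) and from 10.9 to 54.1 in SAL-LPS (median 23.5), so that all 16 MOR-LPS libraries were below the SAL-LPS median. The log2FC was −0.89 (SE 0.24, adjusted p = 0.034, edgeR). The 6 hippocampal markers summed to 1069 to 4465 CPM in MOR-LPS (median 2232) and to 353 to 3063 CPM in SAL-LPS (median 1382), and the library with the lowest Kcnj4 had the highest sum of that list. The part of the list in the difference was not tested. The call was lost without litter 1, 4, 5, 6, 8, 9, 10, 15 or 17, and the log2FC lay between −0.96 and −0.79 over all omissions. In limma-voom with litters correlated, neither gene was called (1.51 with adjusted p = 0.24 for Kcnj10, −0.89 with adjusted p = 0.079 for Kcnj4), nor under the stricter count filter of edgeR's filterByExpr (1.65 and −0.90, adjusted p = 0.19 and 0.153). Neither was called without the libraries against their region's markers, where 0% of all genes were called, with log2FC of 1.64 for Kcnj10 (adjusted p = 0.151, edgeR) and −0.61 for Kcnj4 (adjusted p = 0.34).

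**Figure D4:**
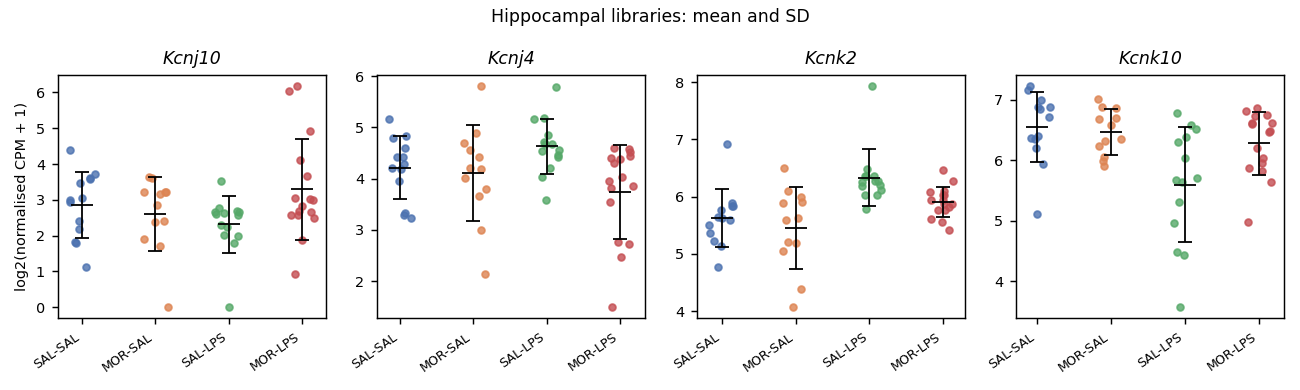
Level of the 4 members called in a hippocampal condition comparison, as log2(normalised CPM + 1) for each library in the 4 conditions, with the mean and SD in black. The high MOR-LPS points of Kcnj10 stand apart from the rest of the group (72.1, 64.8 and 29.6), whereas Kcnj4, Kcnk2 and Kcnk10 differ across most libraries.

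In the other regions 0 members were called for MOR-LPS vs SAL-LPS, where 1.03% of all genes were called in the hypothalamus, 0.0046% in the PFC and 0% in the striatum. There were 7, 4 and 4 members at an unadjusted p under 0.05, and DESeq2 and limma-voom called 0. The hypothalamic members with the smallest p were Kcns1 (log2FC 2.81, SE 0.91, adjusted p = 0.097, edgeR) and Kcnip1 (−0.62, SE 0.22, adjusted p = 0.131). In the PFC they were Kcnmb3 (4.32) and Kcnip3 (−0.49), and in the striatum Kcnj10 (1.60) and Kcnj12 (−0.49).

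The third comparison is the LPS response after perinatal saline (SAL-LPS vs SAL-SAL). In the hippocampus 2 of 74 members were called, where 2.55% of all genes were, and both encode leak channels of the mechano- and lipid-sensitive TREK group. Kcnk2, the gene of TREK-1, was higher after LPS, and Kcnk10, the gene of TREK-2, was lower. Kcnk2 ran from 54.3 to 244 normalised CPM in SAL-LPS (median 75.6) and from 26.1 to 119 in SAL-SAL (median 48.5), with all 14 SAL-LPS libraries above the SAL-SAL median and a log2FC of 0.75 (SE 0.19, adjusted p = 0.029, edgeR). Kcnk10 ran from 10.9 to 108 in SAL-LPS (median 50.6) and from 33.6 to 149 in SAL-SAL (median 103), with 13 of 14 libraries below the SAL-SAL median and a log2FC of −0.83 (SE 0.23, adjusted p = 0.035, edgeR).

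Neither TREK gene was called with the litter as a replicate block, where log2FC was 0.72 for Kcnk2 (adjusted p = 0.195) and −1.07 for Kcnk10 (adjusted p = 0.083). Kcnk2 was not called without litter 1, 3, 9 or 10, with a lowest log2FC of 0.49, nor Kcnk10 without litter 1, 3, 4, 5, 10 or 11, with a smallest change of −0.64. Neither was called without the libraries against their region's markers (0.67 with adjusted p = 0.101 for Kcnk2, −0.59 with adjusted p = 0.218 for Kcnk10, edgeR), where 0.0836% of all genes were. The hippocampal marker list had a lower median in SAL-LPS, at 1382 CPM (353 to 3063), than in SAL-SAL, at 2142 CPM (249 to 4398), and its part was not tested.

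No member was called for this LPS response in the hypothalamus, PFC or striatum, where 0.246%, 0% and 0.0128% of all genes were called. At an unadjusted p under 0.05 there were 12, 2 and 2 members, and DESeq2 called 1, 1 and 0. Kcnc2 came nearest in the hypothalamus, at 0 to 275 normalised CPM in SAL-LPS (median 130) and 94.6 to 1050 in SAL-SAL (median 282), with all 12 SAL-LPS libraries below the SAL-SAL median and a log2FC of −1.06 (SE 0.27, adjusted p = 0.054, edgeR). The smallest SAL-LPS library held 7673 counts in total, and at that depth a value of 0 cannot be read as absence. The SAL-SAL libraries of litter 10 described above enter this comparison too. Kcnq3 gave −0.76 there (SE 0.23, adjusted p = 0.085). The members with the smallest p elsewhere were Kcna1 (0.60) and Kcnmb3 (−5.82) in the PFC and Kcnn3 (0.50) and Kcnc4 (−0.67) in the striatum. Kcnmb3 is near the limit of detection, and a single SAL-SAL library of the PFC, at 10.1 normalised CPM, enters its fold.

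The fourth comparison is the LPS response after perinatal morphine (MOR-LPS vs MOR-SAL). In the hypothalamus 5 of 77 members were called, 3 higher and 2 lower, where 6.27% of all genes were called. Kcna1, Kcnh3 and Kcnip3 rose, and Kcnh8 and Kcnip1 fell. Kcna1 encodes the Kv1.1 channel of axons, Kcnh3 and Kcnh8 encode channels of the ELK group, and Kcnip3 and Kcnip1 encode KChIP partners of Kv4. Within each of the ELK and KChIP groups the called genes moved in opposite directions. The other genes of these groups, Kcnh4, Kcnip2 and Kcnip4, were not called. None of the 3 Kv4 genes was called.

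Kcna1 ran from 43.5 to 305 normalised CPM in MOR-LPS (median 102) and from 22.1 to 207 in MOR-SAL (median 47.3), with 13 of 14 libraries above the MOR-SAL median and a log2FC of 1.15 (SE 0.29, adjusted p = 0.011, edgeR). Kcnh8 ran from 0 to 12.7 in MOR-LPS (median 5.51) and from 8.11 to 21.95 in MOR-SAL (median 12.8), with all 14 libraries below the MOR-SAL median and a log2FC of −1.33 (SE 0.36, adjusted p = 0.018, edgeR). Kcnip1 ran from 6.34 to 70.0 in MOR-LPS (median 40.1) and from 49.2 to 82.5 in MOR-SAL (median 67.7), with 13 of 14 libraries below that median and a log2FC of −0.82 (SE 0.21, adjusted p = 0.012, edgeR). These 3 calls held with the litter as a replicate block, at adjusted p = 0.00267 for Kcna1, 0.028 for Kcnh8 and 0.025 for Kcnip1. Each was lost on leaving out a single litter, Kcna1 without litter 15 (log2FC 0.90, adjusted p = 0.069) and the other genes without litter 14 (−1.21 with adjusted p = 0.055 for Kcnh8, −0.71 with adjusted p = 0.051 for Kcnip1).

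Kcnh3 ran from 0 to 204 normalised CPM in MOR-LPS (median 16.4) and from 1.3 to 28.7 in MOR-SAL (median 5.33), with 10 of 14 libraries above that median and a log2FC of 2.24 (SE 0.66, adjusted p = 0.029, edgeR). Kcnip3 ran from 14.1 to 82.7 in MOR-LPS (median 36.8) and from 11.8 to 47.2 in MOR-SAL (median 20.8), with 13 of 14 libraries above it and a log2FC of 0.85 (SE 0.27, adjusted p = 0.044, edgeR). Both were highest in the same library, of litter 16. With the litter as a replicate block neither was called (1.65 with adjusted p = 0.288 for Kcnh3, 0.82 with adjusted p = 0.121 for Kcnip3), and without litter 16 log2FC was 1.51 for Kcnh3 (adjusted p = 0.281) and 0.60 for Kcnip3 (adjusted p = 0.297). Leaving out litter 6, 8 or 14 also ended both calls, and leaving out litter 3 or 17 that of Kcnip3.

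Without the libraries against their region's markers, which left 8 MOR-LPS and 12 MOR-SAL libraries, 1 of the 5 was called, Kcna1 (log2FC 1.46, adjusted p = 0.011, edgeR), and the share of all genes called was 1.13%. The log2FC was −1.15 for Kcnh8 (adjusted p = 0.155), −0.36 for Kcnip1 (adjusted p = 0.345), 0.47 for Kcnh3 (adjusted p = 0.819) and 0.67 for Kcnip3 (adjusted p = 0.226).

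Several marker lists differed between these groups. The 6 astrocyte markers summed to 104 to 1271 CPM in MOR-LPS (median 597) and to 77.9 to 219 CPM in MOR-SAL (median 124). The 9 hypothalamic markers summed to 0 to 286 CPM (median 37.5) against 4.9 to 172 CPM (median 90.1), the 6 striatal markers to 59.2 to 162 CPM (median 91.1) against 89.9 to 438 CPM (median 194), and the 6 hippocampal markers to 249 to 2807 CPM (median 497) against 293 to 498 CPM (median 416). The oligodendrocyte list had medians of 487 and 303 CPM (highest 6131 and 594), the list of endothelium and pericytes 9.96 and 3.63 CPM (highest 69.4 and 12.4), and the microglial list 29.6 and 20.2 CPM (highest 107 and 41.5). The library with the highest Kcnh3 and Kcnip3 had the lowest hippocampal sum of its group. The libraries ranked 2 to 7 on Kcnh3 held ranks 4, 5, 1, 2, 6 and 3 on the hippocampal list. Those ranked 2 to 7 on Kcnip3 held ranks 4, 5, 9, 1, 13 and 7 on it. The 4 libraries with the highest Kcnip3 were the 4 highest on the astrocyte list, and the 3 with the highest Kcnh3 ranked 3, 1 and 4 on it. The library ranked 2 on the astrocyte list, at 1199 CPM, ranked 11 on Kcnh3, at 3.15 normalised CPM. Those ranked 5 and 6 on the list ranked 9 and 10 on Kcnh3, at 8.38 and 6.91. The part of these lists in the 5 calls was not tested.

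In the other regions 0 members were called for MOR-LPS vs MOR-SAL, where the share of all genes called was 0.467% for the hippocampus, 0.0184% for the PFC and 1.39% for the striatum. At an unadjusted p under 0.05 there were 7, 7 and 13 members, and DESeq2 called 0, 2 and 0. In the PFC, Kcnh4, an ELK channel gene, ran from 13.1 to 96.0 normalised CPM in MOR-LPS (median 41.5) and from 35.8 to 216 in MOR-SAL (median 98.3), with all 16 MOR-LPS libraries below the MOR-SAL median and a log2FC of −1.13 (SE 0.26, adjusted p = 0.08, edgeR). Kcna1 ran there from 28.5 to 220 in MOR-LPS (median 59.2) and from 8.2 to 44.4 in MOR-SAL (median 32.1), a log2FC of 1.07 (SE 0.27, adjusted p = 0.08, edgeR). Without the libraries against their region's markers, with 6 MOR-LPS and 3 MOR-SAL libraries left, log2FC was −0.89 for Kcnh4 and 0.61 for Kcna1, and neither was called.

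In the striatum, 55 of 74 members (74.3%) had a lower level in MOR-LPS, against 40.2% of all genes, and the median log2FC was −0.18 over members and 0.11 over all genes. None of these differences passed the test. Leaving out libraries against their region's markers, 57 of 74 members (77.0%) were lower, against 41.8% of all genes. In MOR-LPS vs SAL-LPS, which uses the same MOR-LPS libraries, 58 of 74 members (78.4%) were lower, against 46.2% of all genes. Without the libraries against their markers 49 of 74 (66.2%) were, against 46.9% of all genes. In MOR-SAL vs SAL-SAL, whose MOR-SAL libraries are the reference of the first count, 27 of 74 striatal members (36.5%) were lower, against 56.8% of all genes. The share of members lower in MOR-LPS vs MOR-SAL was 67.6% in the PFC and 37.8% in the hippocampus, against 45.2% and 47.4% of all genes. Marker lists of other cell types differed too. In MOR-LPS, MOR-SAL and SAL-LPS the striatal libraries had medians of 367, 175 and 241 CPM on the astrocyte list, 530, 270 and 346 CPM on the oligodendrocyte list (highest 5120, 1147 and 1002) and 18.3, 7.58 and 7.01 CPM on the microglial list (highest 207, 25.1 and 44.8). The thalamic list had medians of 3406, 4292 and 4786 CPM in the same order. Gfap and P2ry12 were at 0 in these groups. The part of these lists was not tested. All 10 auxiliary members tested and all 5 Kv7 members were on the lower side, with family medians of −0.46 and −0.31. Kcna4, which encodes the A-type Kv1.4 channel, ran from 10.5 to 76.5 normalised CPM in MOR-LPS (median 45.8) and from 50.0 to 115 in MOR-SAL (median 66.9), with 17 of 18 libraries below that median and a log2FC of −0.74 (adjusted p = 0.101, edgeR). Kcnj10 ran from 2.63 to 157 against 2.68 to 29.4, a log2FC of 1.71 (adjusted p = 0.156). In the hippocampus the smallest p belonged to Kcnv1 (0.97) and Kcng1 (−0.74).

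**Figure D5:**
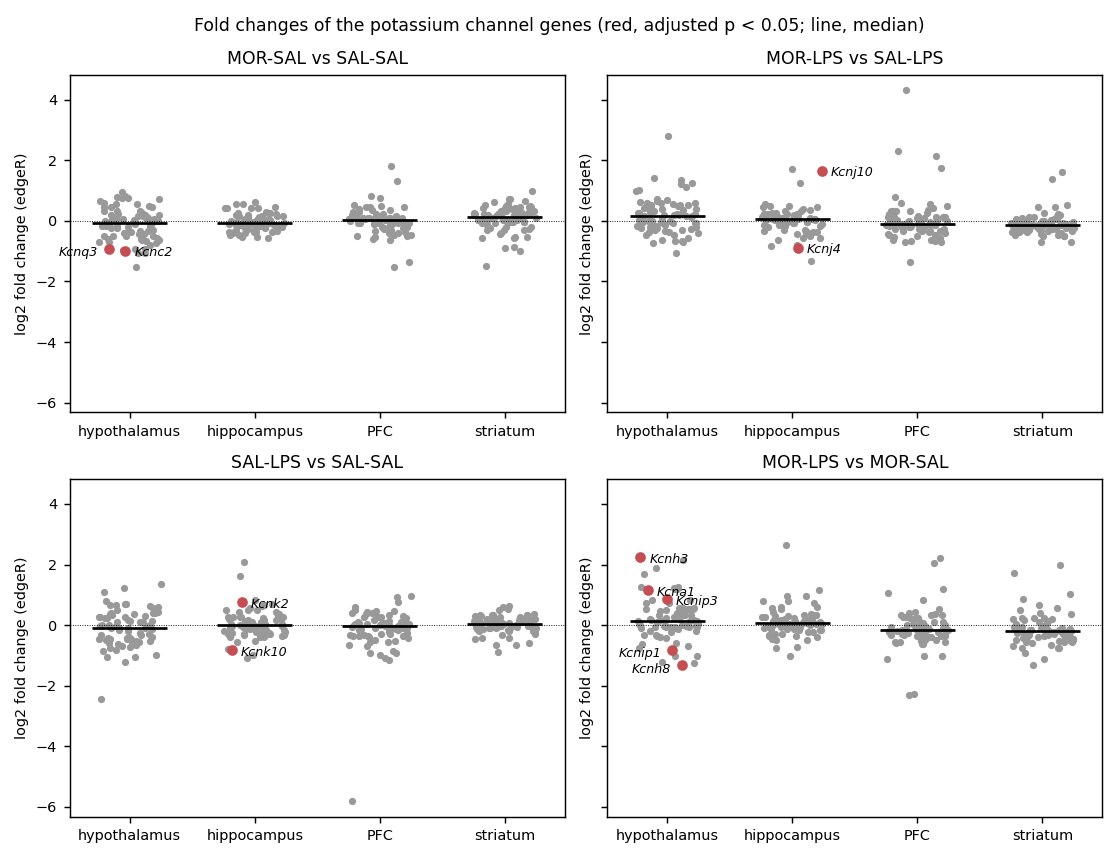
Log2 fold change of every member tested (77 in the hypothalamus, 74 in each other region) in the 4 condition comparisons, by region, with members at an adjusted p under 0.05 in red and named, and a line at the median. The 11 red points lie in the hypothalamus and hippocampus, and the striatal points for MOR-LPS vs MOR-SAL lie mostly below 0.

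The last comparison asks whether the LPS response differed between morphine- and saline-exposed mice, as an interaction in the same model. In the hypothalamus 3 of 77 members were called, where 3.8% of all genes were, and 18 members had an unadjusted p under 0.05. Kcnj3, the GIRK1 gene, had a higher response after morphine (log2 difference of responses 1.12, SE 0.29, adjusted p = 0.017, edgeR). Its medians were 42.8, 36.3, 34.99 and 46.3 normalised CPM in SAL-SAL, then MOR-SAL, SAL-LPS and finally MOR-LPS, with ranges of 32.3 to 116, 27.6 to 46.3, 25.3 to 53.9 and 20.7 to 118. Of the exon bases of Kcnj3, 31.1% also lie in another gene. Without litter 10 the difference was 0.74 (adjusted p = 0.196, edgeR).

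Kcns1, a silent subunit that modifies Kv2 channels, gave 4.33 (SE 1.23, adjusted p = 0.031, edgeR) at very low levels. Its medians were 0.999, 0.775, 0.0556 and 1.10 normalised CPM in the same order, its highest values 9.56, 2.97, 1.66 and 15.1, and 3, 2, 6 and 1 libraries were at 0. Kcnip1 gave −1.09 (SE 0.31, adjusted p = 0.033, edgeR), with medians of 51.2, 67.7, 56.5 and 40.1 and lowest values of 14.8, 49.2, 0 and 6.34. The SAL-LPS library of 7673 total counts enters the values of Kcns1 and Kcnip1. With the litter as a replicate block none of the 3 was called, at 1.02 for Kcnj3 (adjusted p = 0.271), 3.93 for Kcns1 (adjusted p = 0.368) and −1.20 for Kcnip1 (adjusted p = 0.161). None was called without the libraries against their region's markers either, at 0.66 (adjusted p = 0.319), 3.88 (adjusted p = 0.146) and −0.56 (adjusted p = 0.348) in that order, where 1.67% of all genes were called. Kcnip1 was also lost without litter 6, 8, 9, 10, 13 or 14 (−1.07 to −0.93), and Kcns1 without litter 1, 9, 10, 14 or 16 (3.61 to 4.18).

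For the interaction, 0 members were called in the hippocampus, PFC and striatum, where 2.35%, 1.78% and 0.00854% of all genes were, and there were 5, 5 and 10 members at an unadjusted p under 0.05, with 0 called by DESeq2 in each. The smallest p belonged to Kcnj10 (1.93) and Kcnj4 (−0.81) in the hippocampus, Kcnj10 (3.12) and Kcnt1 (−0.67) in the PFC, and Kcnj16 (2.88) and Kcnab2 (−0.84) in the striatum.

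Kcnd2 and Kcnj6 were called in none of the 20 condition comparisons. The smallest p of Kcnd2 was for MOR-LPS vs MOR-SAL in the striatum (log2FC −0.66, SE 0.29, adjusted p = 0.215, edgeR) and that of Kcnj6 for the same comparison in the hypothalamus (0.35, SE 0.18, adjusted p = 0.28).

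A list of 26 genes whose products assemble with, anchor or regulate these channels was read in the same fits. It holds the Kv4 partners Dpp6 and Dpp10, the anchoring proteins of the Dlg group, the BK partners of the Lrrc group, the sulfonylurea receptors and the RGS proteins that shorten GIRK currents, among others. In the hypothalamus 1 gene was called for MOR-LPS vs MOR-SAL, where 6.27% of all genes were, Lgi1, a secreted protein tied to Kv1 channels (62.6 to 296 normalised CPM, median 92.8, against 39.4 to 98.8, median 73.8, log2FC 0.67, SE 0.20, adjusted p = 0.03, edgeR). Rgs7bp, which anchors RGS proteins at the membrane, was called there in the interaction (1.10, SE 0.33, adjusted p = 0.039, edgeR), where 3.8% of all genes were.

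In the hippocampus, Lrrc55, a BK gamma subunit, was higher in MOR-LPS vs SAL-LPS (1.04 to 24.8, median 3.14, against 0 to 5.43, median 0.651, log2FC 2.25, SE 0.60, adjusted p = 0.033, edgeR), and Dlg1 was higher in SAL-LPS vs SAL-SAL (130 to 467, median 189, against 86.2 to 278, median 136, log2FC 0.61, SE 0.18, adjusted p = 0.0497). These were 1 gene of the list each, where 2.73% and 2.55% of all genes were called. In the striatum, 2 genes fell in MOR-LPS vs MOR-SAL, where no channel gene and 1.39% of all genes were called. Dlg4, the scaffold PSD-95, ran from 54.0 to 111 (median 80.5) against 80.4 to 186 (median 115), a log2FC of −0.62 (SE 0.15, adjusted p = 0.027, edgeR), and Rgs7bp from 167 to 617 (median 323) against 347 to 842 (median 553), a log2FC of −0.76 (SE 0.18, adjusted p = 0.027). In the PFC, Abcc9, the SUR2 receptor, was called in the interaction (7.51, SE 1.94, adjusted p = 0.032, edgeR), where 1.78% of all genes were. DESeq2 called 0 genes of the list in that interaction (adjusted p = 0.173 for Abcc9) and 0 in hippocampal SAL-LPS vs SAL-SAL (adjusted p = 0.062 for Dlg1). Without the libraries against their region's markers none of the 7 calls of the list remained, with adjusted p from 0.083 to 0.87. The log2FC was then −0.59 for Dlg4 and −0.65 for Rgs7bp in the striatum, 2.19 for Lrrc55, 10.1 for Abcc9 and 0.80 for Rgs7bp in the hypothalamus, and it was 0.19 for Lgi1 and 0.26 for Dlg1. In the same setting Rgs7bp was newly called for hypothalamic MOR-SAL vs SAL-SAL. In the other 14 of 20 comparisons no gene of the list was called by edgeR, with 0 to 7 genes at an unadjusted p under 0.05 and at most 1 called by DESeq2.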

How the data were processed

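Nuclear RNA of sorted NeuN+ nuclei was made into libraries by a modified Smart-seq3 protocol with Tn5 tagmentation. Per the submitters' processing notes, reads were handled with Trim Galore 0.6.7, STAR 2.7.10a, HTSeq 0.12.4 and DESeq2 1.40.2 on mm10. The strand setting and the treatment of molecular identifiers in counting are not given in the sources used here, so genes that overlap others or have antisense partners are uncertain, and counts are not known to be single molecules. The authors deposited raw counts of 46403 genes for each region, which were used for every test, and CPM values made by dividing by the library total, with mitochondrial genes dropped. Levels as CPM were computed from the raw counts with each library's total, and the deposited CPM gave the same 77 members.

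Members and lists, among them the complex partners, markers and families, were chosen with earlier results of these data known. Positions are from GENCODE M21 (mm10). Genes with a total count above 10 in a region were tested in edgeR 4.0.16 (R 4.3.3) with TMM normalization, condition and sex as terms and the quasi-likelihood F test, and p-values were adjusted over all genes by Benjamini-Hochberg, with calls at an adjusted p under 0.05. Normalised CPM uses TMM-scaled library sizes. Regions were compared in a joint fit of region by condition means and sex, with a minimum log2FC of 1. The scripts were tested on simulated data. Depth per library is given with the levels, and at the lowest total of 7673 most members have few or no counts. No libraries were identical.

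Litter, the first number of the replicate label, which the labels do not call a litter, was used as a replicate block for LPS responses and the interaction. For exposure comparisons litters are nested, and limma 3.58.1 (voom) with a correlation within litters was used. This correlation was −0.049, −0.0030, 0.0035 and 0.029 in the hypothalamus, hippocampus, PFC and striatum. Other alternatives were DESeq2 1.42.0, its size factors in edgeR, edgeR's filterByExpr, leaving out low-depth or sex-discordant libraries, each litter in turn, the animal as a block between regions (fitted with glmQLFit's newer dispersion method), SAL-SAL libraries alone and libraries with concordant regional markers. Named genes were Kcnd2, Kcnq3 and Kcnj6, the called members, with none called the member with the smallest p in each direction, the members with the largest regional differences or levels per kilobase of exon, and the members nearest the minimum of 1 CPM. The highest member of each subfamily was also eligible. A few members and 1 sequence are not reported here, though they are counted.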

Additional observations from a re-analysis of the deposited data

Results flagged for a closer look

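In the hypothalamus the LPS response differed between morphine- and saline-exposed mice by the interaction term for 3 members. The log2 difference of responses (morphine minus saline) was 1.12 for Kcnj3, 4.33 for Kcns1 and −1.09 for Kcnip1, and none of the 3 was called with the litter as a replicate block or without the libraries against their region's markers. Among 11 sets of values, each of 1 member in a group of 4 to 10 libraries and several from the same libraries, 2 had a library far from the rest by Dixon's test, which by chance marks about 5% of such sets. Kcnmb3, a BK beta subunit near the limit of detection, had 10.1 normalised CPM in a single SAL-SAL library of the PFC, from litter 5. Kcnj10 had 29.4 normalised CPM in a single MOR-SAL library of the striatum, from litter 17.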

How the results depend on the processing

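Litter omissions beyond the hypothalamic exposure comparisons, and condition comparisons without the libraries against their region's markers, were added after seeing the data. For members called in a condition comparison, no log2FC of that comparison changed sign under any alternative run. Counts of called members moved as follows. In the hypothalamus, MOR-SAL vs SAL-SAL went from 2 to 1 without sex-discordant libraries and to 0 with limma-voom and a litter correlation, SAL-LPS vs SAL-SAL from 0 to 1 with DESeq2, with its size factors and without low-depth libraries, MOR-LPS vs MOR-SAL from 5 to 3 with filterByExpr and to 3 with the litter as a replicate block, and the interaction from 3 to 6 with DESeq2's size factors, to 1 with filterByExpr and to 0 with the litter as a replicate block. In the hippocampus, MOR-LPS vs SAL-LPS went from 2 to 0 with filterByExpr, to 1 without sex-discordant libraries and to 0 with limma-voom, and SAL-LPS vs SAL-SAL from 2 to 0 with filterByExpr and to 0 with the block. In the PFC, DESeq2 called 1 member for SAL-LPS vs SAL-SAL and 2 for MOR-LPS vs MOR-SAL, where edgeR called 0. In striatum vs PFC the count went from 12 to 24 without libraries against their region's markers, and in hippocampus vs striatum from 21 to 10 in SAL-SAL libraries alone. Without those libraries, called members went from 5 to 1 for MOR-LPS vs MOR-SAL and from 3 to 0 for the interaction in the hypothalamus, and from 2 to 0 for MOR-LPS vs SAL-LPS and 2 to 0 for SAL-LPS vs SAL-SAL in the hippocampus. With a litter left out, hypothalamic counts ranged from 0 to 5 for MOR-SAL vs SAL-SAL, 0 to 0 for MOR-LPS vs SAL-LPS, 0 to 1 for SAL-LPS vs SAL-SAL, 1 to 7 for MOR-LPS vs MOR-SAL and 0 to 5 for the interaction. Over all genes, calls in the same order ranged from 85 to 774, 0 to 247, 0 to 73, 809 to 2015 and 669 to 1258. Between 28489 and 28809 genes were tested in these fits. Hippocampal counts ranged from 0 to 2 for MOR-LPS vs SAL-LPS, 0 to 3 for SAL-LPS vs SAL-SAL, and 0 to 0 for the interaction, for MOR-LPS vs MOR-SAL and for MOR-SAL vs SAL-SAL. Calls over all genes ranged from 145 to 741, 0 to 830, 351 to 573, 1 to 77 and 0 to 14 in that order. Between 21804 and 22028 genes were tested there. The litter block changed no other count by over 1.5 times. The cause of these changes was not tested. Litter numbers were shared between conditions of the same exposure, and the litter correlation was at most 0.029. Low-count members such as Kcns1 and Kcnmb3 are limited by depth.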

Other observations

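Kcnj10, the astrocyte Kir4.1 gene, was high in several regions of the same animals, which were chosen after their values were seen. An MOR-LPS animal of litter 15 had 118 normalised CPM in its hypothalamic library, 72.1 in its hippocampal, 85.9 in its PFC and 113 in its striatal library, while the group medians were 21.9, 6.54, 8.20 and 8.87, and its ranks were 2 of 14, 1 of 16, 1 of 16 and 2 of 18. A SAL-SAL animal of litter 9 had 93.9, 10.1, 64.5 and 66.3 normalised CPM in the same order, against medians of 8.43, 6.90, 8.75 and 7.59, and its ranks were 2 of 11, 5 of 13, 1 of 10 and 1 of 13. The log2FC of Kcnj10 for MOR-LPS vs MOR-SAL was 1.67 (hypothalamus, adjusted p = 0.058, edgeR), 1.15 (hippocampus), 2.21 (PFC) and 1.71 (striatum), and it was called in none of them. These values come partly from the same animals and are not independent across regions. The litter 15 animal ranked 6, 2 and 4 on the astrocyte list in its hypothalamic, hippocampal and striatal libraries. In striatal MOR-LPS the 7 libraries highest on Kcnj10 were the 7 highest on that list. In hippocampal MOR-LPS the libraries ranked 4 and 5 on Kcnj10 ranked 15 and 16 on it. The part of the astrocyte list in these values was not tested.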
